A study of Mus musculus with 81 samples.

Results

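The endogenous blood T cell repertoire of control mice was followed from day 0 to day 7 by TCRβ CDR3 sequencing of genomic DNA. The mice were Pep Boy mice (CD45.1 C57BL/6, strain B6.SJL-Ptprca Pepcb/BoyJ) with a subcutaneous tumor from 2000000 injected cells of EG7.OVA, an OVA-expressing subline of the mouse T-cell lymphoma EL4. Once tumors averaged about 175 mm3, every mouse was given 1000000 naïve OT-1 cells, T cells of a TCR transgenic strain that recognise OVA. On days 0 and 3 they were dosed with 1e9 mRBC-CTRL, mouse red blood cells without the OVA peptide complex, 4-1BBL and IL-12 that the active cells display. Day 0 blood was drawn within minutes of giving OT-1 cells (5 min by the labels, up to a few minutes more by the study's methods), ahead of dosing, and day 7 blood at the end of the experiment. Members were taken from the labels: 9 of the 81 libraries of the series are control blood, 5 from day 0 and 4 from day 7. The mouse numbers in the labels tie 8 of these libraries into 4 pairs (mice 2 to 5), and for mouse 1 only day 0 blood was analysed here. Endogenous rearrangements were the productive (in-frame) ones whose CDR3 is not that of OT-1, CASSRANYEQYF. They numbered 37134 over the 9 libraries, of 378297 over all libraries of the series.

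Each developing T cell joins a V, a D and a J gene segment of the TCRβ locus at random and trims and adds bases at the joints. The resulting CDR3 loop is the part of the receptor that touches the antigen peptide, and its nucleotide sequence serves as a natural barcode of a clone. A blood sample holds mostly naïve cells from clones too small to be drawn again, so a rearrangement that is seen in many templates points to a clone of several cells. A template is a DNA molecule of 1 rearrangement, and the deposited values count templates. Clones that respond to antigen divide and pass through the blood on their way to tissues. The comparison asks how the blood of the same mouse differed before and after a week of tumor growth without active treatment.

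The largest endogenous rearrangement of each day 7 library is shown first, because these 4 clones were seen in 0 or 1 templates on day 0. The OT-1 rearrangement, which was left out, is given for comparison. Each 87-base read is printed 5′ to 3′ with the V gene part in lower case and the CDR3 in capitals, from the codon of its conserved cysteine to the end of the read.
Mouse 2, TCRBV15-01 and TCRBJ02-01: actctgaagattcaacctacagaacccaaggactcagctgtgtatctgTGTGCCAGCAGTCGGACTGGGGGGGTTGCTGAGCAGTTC
Mouse 3, TCRBV04-01 and TCRBJ01-04: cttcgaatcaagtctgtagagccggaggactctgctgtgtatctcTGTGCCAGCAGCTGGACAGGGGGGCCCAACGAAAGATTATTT
Mouse 4, TCRBV05-01 and TCRBJ02-04: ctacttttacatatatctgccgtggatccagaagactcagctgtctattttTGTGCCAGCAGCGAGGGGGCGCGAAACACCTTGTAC
Mouse 5, TCRBV14-01 and TCRBJ02-07: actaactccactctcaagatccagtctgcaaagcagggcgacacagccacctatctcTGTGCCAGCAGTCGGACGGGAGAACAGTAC
OT-1, TCRBV12-01 and TCRBJ02-07: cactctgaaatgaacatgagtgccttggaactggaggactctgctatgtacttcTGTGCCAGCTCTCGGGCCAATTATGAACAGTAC

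The control blood libraries held 3423 to 10940 productive templates, of which 2621 to 10699 were endogenous. In every mouse the day 7 library was the deeper in endogenous templates, with 4954 on day 0 and 5877 on day 7 in mouse 2, 2621 and 6235 in mouse 3, 7304 and 10699 in mouse 4, and 4983 and 5002 in mouse 5. Most rearrangements were seen once, 67.2% to 71.8% of those in a library. OT-1 made up 18.9% to 28.8% of productive templates on day 0 and 2.17% to 7.58% on day 7. The lymphoma's own CDR3, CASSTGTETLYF, was found in 1 template each in the day 0 blood of mice 1 and 2 and in 0 templates of all 4 day 7 libraries, which allows at most 0.0585% of productive templates in the shallowest. The labels name submandibular bleed and cardiac puncture as the ways blood was drawn without saying which sample had which, and fewer T cells in the blood cannot be told apart from less DNA recovered.

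Few endogenous rearrangements were found on both days, and on average more within a mouse than between mice. Mice 2, 3, 4 and 5 shared 36, 8, 37 and 17 rearrangements between their own day 0 and day 7 blood, and the 16 pairings of different mice shared 4 to 23. Shared rearrangements held 1.64%, 0.458%, 1.04% and 0.482% of day 0 templates in mice 2, 3, 4 and 5. On day 7 they held 2.18%, 0.321%, 2.51% and 0.4998%. Mice 2 and 4 had the most shared rearrangements and mouse 3, with the shallowest day 0 library, the least by number. When every library was brought to 2621 templates, the expected number shared was 17.0, 5.20, 8.87 and 6.89 within mice 2, 3, 4 and 5 and 1.18 to 5.49 between mice, so that mouse 3 lay inside the range of the others. The Morisita-Horn index, which weights shared clones by their share and runs from 0 to 1, was 0.0416, 0.00391, 0.0238 and 0.00275 within mice 2, 3, 4 and 5 (mean 0.0180 ± 0.0185, SD, n = 4) and 0.000603 to 0.00384 between mice. Mouse 5 lay inside the between-mouse range and mouse 3 just above it, so the mean rested on mice 2 and 4. The index averaged over the 4 true pairings was the highest of the 24 possible pairings (p = 0.0417, exact one-sided permutation test, the smallest p this design allows), and p was 0.0833 when clones were defined by CDR3 amino acids with V and J gene. 

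**Figure D1:**
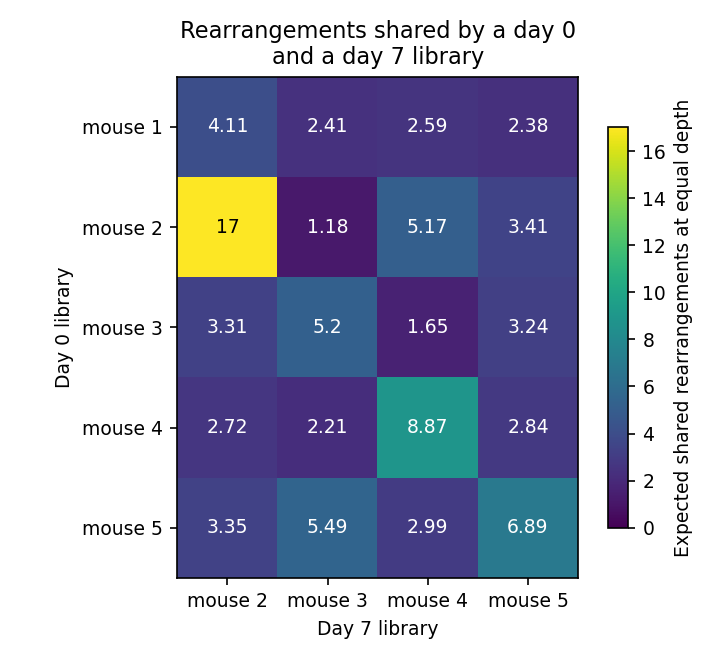
Expected number of rearrangements shared by a day 0 library (rows) and a day 7 library (columns) of control blood after bringing every library to 2621 templates; colour and printed number give the same value. The 4 same-mouse cells hold 17.0, 5.20, 8.87 and 6.89, and the 16 others 1.18 to 5.49.

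Rearrangements shared within a mouse and between mice were also compared by the bases added at their joints, as a description. Bases added at the joints make a rearrangement unlikely to arise again, and rearrangements without them are the ones different animals tend to share. The mean number of added bases was 1.18 to 2.88 for the rearrangements shared within a mouse (median over 4 mice 2.27) and 0.333 to 1.62 for those shared between mice (median over 16 pairings 0.983), against about 3.3 to 3.5 over all endogenous templates. The ranges overlapped. No added base was present in 8 of 36, 1 of 8, 8 of 37 and 9 of 17 rearrangements shared within mice 2, 3, 4 and 5, and in 38.1% of the 147 shared between mice, where the same rearrangement can count in several pairings. Mouse 5 thus lay inside the between-mouse range in added bases (1.18) and above the pooled between-mouse share without any. The overlap between different mice on the same day had a median of 2.22 expected shared rearrangements on day 0 (1.05 to 6.07) and 2.40 on day 7 (1.61 to 3.84), over 6 pairs of mice each at 2621 templates. The mouse 2 clone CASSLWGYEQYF (TCRBV04-01, TCRBJ02-07) was its largest on day 0, with 16 templates (0.323%), and had 15 (0.255%) on day 7. The mouse 4 clone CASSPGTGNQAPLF (TCRBV17-01, TCRBJ01-05) was also its largest on day 0, with 9 templates, and had 18 on day 7. Neither passed the test for a difference between days (adjusted p = 0.75 and 0.611, Fisher's exact test with Benjamini-Hochberg adjustment). The largest day 0 clones of mouse 3 (9 rearrangements tied at 4 templates, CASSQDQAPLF among them) and mouse 5 (2 tied at 6, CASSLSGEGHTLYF among them) had 0 templates on day 7 for those named, and the largest of mouse 1 on day 0 was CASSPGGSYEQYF with 6.

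Rearrangements of several templates appeared on day 7 in all 4 mice. With Fisher's exact tests on the 106 rearrangements that had at least 5 templates over both days of a mouse, 34 (32.1%) were higher on day 7 and 7 (6.6%) were lower (Benjamini-Hochberg adjusted p under 0.05 within the mouse). Higher and lower calls were 6 and 3 of 28 tested in mouse 2, 8 and 0 of 27 in mouse 3, 9 and 2 of 34 in mouse 4, and 11 and 2 of 17 in mouse 5. At an unadjusted p under 0.05 mouse 3 also had 0 lower and 13 higher. In that mouse no day 0 rearrangement reached 5 templates, so one seen only on day 0 could not be tested. The lack of lower calls in mouse 3 is thus no test of a fall. The filter passes a rearrangement through the day on which it is large, and each test compares the templates of 2 libraries, not conditions. The 34 called higher summed to 0.0254% of endogenous templates on day 0 and 3.39% on day 7, averaged over mice, and 30 of them had 0 templates on day 0. With both libraries of a mouse drawn to the smaller, 23, 7, 26 and 17 rearrangements were tested in mice 2, 3, 4 and 5. Of these, 32 were called higher and 3 lower. With no minimum of templates, and so many more tests, 11 and 0 were called. Without mouse 2 the lower calls numbered 4, which only takes away that mouse's own calls.

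The leading clone of mouse 4, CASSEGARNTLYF, rose from 1 template on day 0 (0.0137%) to 147 on day 7 (1.37%), a ratio of 100 with an exact 95% counting interval of 17.7 to 3990 (adjusted p = 9.59e-31, Fisher's exact test). In mouse 5, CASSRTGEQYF rose from 0 to 82 templates (1.64%), at least 27.2-fold over the level of 3 templates taken as the smallest a library can show (adjusted p = 5.09e-24, Fisher's exact test). The exact 95% counting interval of this ratio, with 0 on day 0, starts lower, at 21.7. In mouse 2, the TCRBV15-01 and TCRBJ02-01 clone rose from 0 to 50 templates (0.851%), at least 14.0-fold over the same level, with an exact lower limit of 11.01. In mouse 3, the TCRBV04-01 and TCRBJ01-04 clone rose from 0 to 54 templates (0.866%), at least 7.57-fold over it, with an exact lower limit of 5.95. Each mouse therefore had a different leading clone, and none of the 4 reached 2% of the endogenous repertoire. The mouse with the most calls, mouse 5, also had the highest leading share, while the largest day 0 clone of any mouse held 0.323%.

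Behind the leaders, mouse 2 gained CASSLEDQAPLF (TCRBV16-01, TCRBJ01-05), from 0 to 26 templates, and a TCRBV13-02 and TCRBJ02-03 clone, from 2 to 27. In mouse 4, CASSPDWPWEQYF (TCRBV19-01, TCRBJ02-07) went from 2 to 36 templates, a ratio of 12.3 (3.16 to 105), and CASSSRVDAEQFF (TCRBV12-01, TCRBJ02-01) from 0 to 20. Mouse 3 gained a TCRBV16-01 clone and a TCRBV04-01 clone, both with TCRBJ02-07, of 29 and 28 templates from 0. Over all 34, day 7 counts ran from 6 to 147 templates with a median of 17.5, and day 0 counts from 0 to 2. They used 13 V genes, most often TCRBV12-01 (6 of 34), and TCRBJ02-07 was their most frequent J gene (11 of 34). Of all endogenous day 7 templates, TCRBV12-01 held 5.24% and TCRBJ02-07 27.2% (means of 4 mice).

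The 7 rearrangements called lower were small, with 6 to 8 templates on day 0 and 0 or 1 on day 7. They were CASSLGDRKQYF (7 to 0), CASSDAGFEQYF (6 to 0) and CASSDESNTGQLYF (8 to 1) in mouse 2, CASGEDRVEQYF and another TCRBV13-02 and TCRBJ02-07 clone (each 6 to 0) in mouse 4, and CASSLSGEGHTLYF and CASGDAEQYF (each 6 to 0) in mouse 5. Their adjusted p ran from 0.0138 to 0.0444 (Fisher's exact test), and 0 of them passed at 0.01 or with a minimum of 10 templates. No rearrangement of at least 10 templates was seen on day 0 and not on day 7 (0 in each of the 4 mice), and the only one of that size on day 0 was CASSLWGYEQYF of mouse 2. Seen on day 7 and not on day 0 were 4 of 7, 13 of 13, 7 of 11 and 7 of 7 of that size in mice 2, 3, 4 and 5. These counts are at full depth, and the day 7 library was the deeper in every mouse. The gap in mouse 3 was from 2621 to 6235 endogenous templates.

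**Figure D2:**
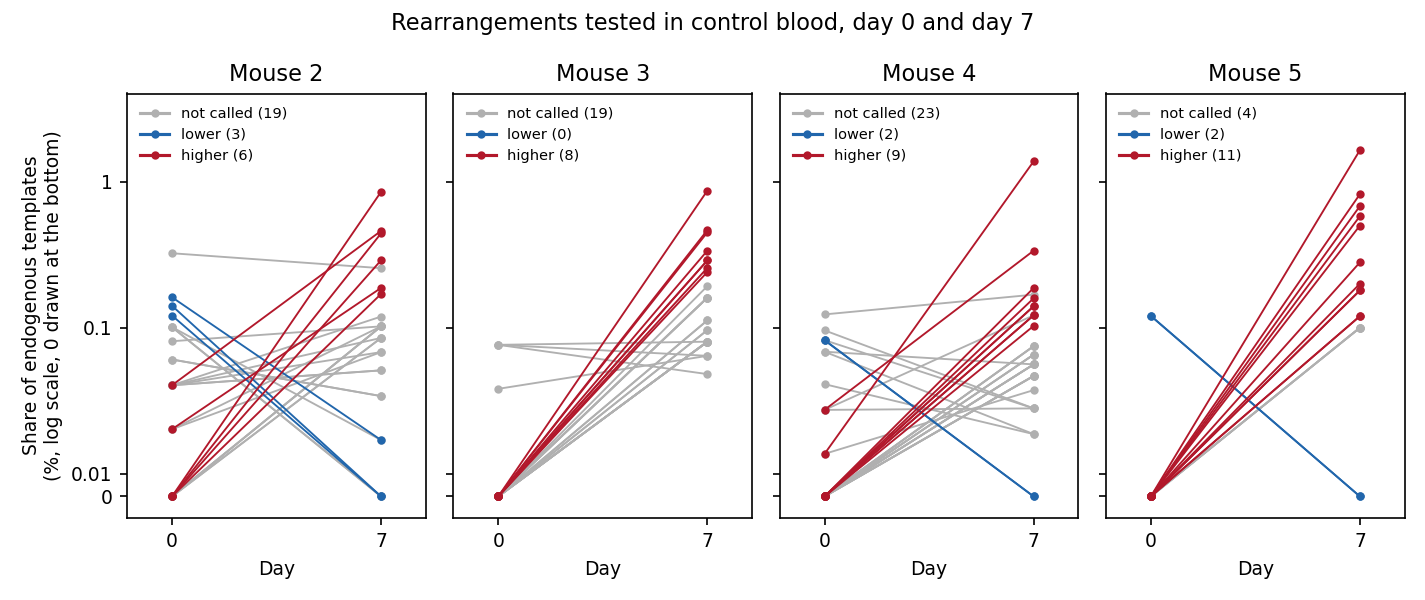
Share of endogenous templates (%, log scale, 0 drawn at the bottom) on day 0 and day 7 for each rearrangement tested in control mice 2 to 5; red lines were called higher, blue lower and grey neither. Most red lines start at 0 templates and reach 0.103% to 1.64% on day 7, while the blue ones start at 0.0821% to 0.161%.

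The clones that rose in blood were looked up in the day 7 tumor of the same mouse, a library the test did not use. Of the 34, 32 were found in the mouse's own tumor and 1 in the tumor of another control mouse (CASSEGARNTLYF of mouse 4, 2206 templates in its own tumor and 1 in that of mouse 5). Of the 7 called lower, 2 were found in the own tumor, and of the 65 called neither, 48 were. The calls also differ in day 7 blood count, with a median of 17.5 templates for those called higher and 0 for those called lower. The part of day 7 clone size in these counts was not tested. Tumor counts of the leading clones were 1762 in mouse 2, 1191 in mouse 3, 2206 in mouse 4 and 1244 in mouse 5. With OT-1 and the lymphoma CDR3 left out, these counts were 15.3%, 5.05%, 14.4% and 10.5% of the productive tumor templates that remained. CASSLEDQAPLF of mouse 2, with 26 templates in day 7 blood, was larger still in its tumor, at 3659 templates (31.9%). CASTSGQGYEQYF of mouse 4 (15 blood templates) and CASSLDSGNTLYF of mouse 5 (6) were the 2 not found in the tumor. Tumor libraries were deeper than blood, with 44761 to 77041 productive templates, so a clone present in both was the easier to see there.

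Over all endogenous templates, the share whose rearrangement was in the own tumor was 0.843% to 1.96% on day 0 (5 mice) and 5.85%, 7.31%, 5.14% and 8.16% on day 7 in mice 2, 3, 4 and 5. The days did not overlap and the share was higher in 4 of 4 mice, by 5.23 ± 1.81 percentage points (SD, n = 4; p = 0.125, exact two-sided sign-flip test, the smallest p that 4 pairs allow). Tumors of other control mice held 0% to 0.363% of day 0 templates and 0.040% to 1.49% of day 7 templates; the highest, in mouse 4, rested mainly on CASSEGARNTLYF, which was in the tumor of mouse 5 by 1 template. The lymphoma CDR3 made up 63.2%, 50.0%, 73.4% and 79.4% of productive templates in the tumors of mice 2, 3, 4 and 5, and 0 templates of their day 7 blood.

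**Figure D3:**
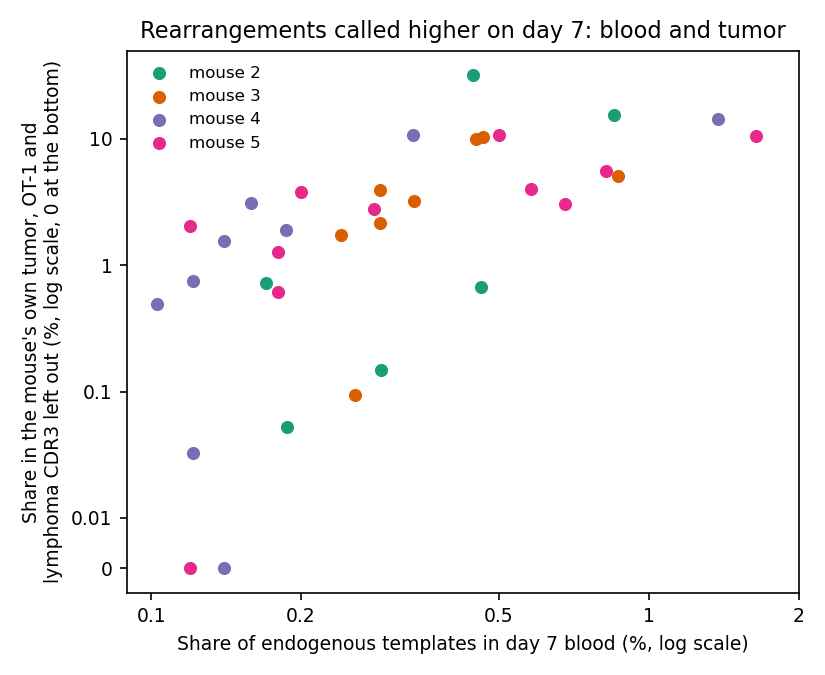
Each point is 1 of the 34 rearrangements called higher in day 7 blood; the horizontal axis gives its share of endogenous templates in day 7 blood and the vertical axis its share of tumor templates after leaving out OT-1 and the lymphoma CDR3 (%, both log scales, 0 drawn at the bottom). All but 2 were found in the mouse's own tumor, and the leading clones of the 4 mice held 5.05% to 15.3% there.

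Some CDR3s that rose in 1 mouse were also abundant in another animal, on different nucleotide sequences; these were picked out after their values were seen. In mouse 5, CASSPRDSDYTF (TCRBV12-01, TCRBJ01-02) was carried by 2 rearrangements that both rose from 0, to 41 and 34 templates, with adjusted p of 7.14e-12 and 6.25e-10 (Fisher's exact test). Mouse 3 gained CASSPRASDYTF, with the same V and J genes and 1 residue different, from 0 to 21 templates. The tumor of mouse 1, of which no day 7 blood was analysed here, held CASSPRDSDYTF on another rearrangement in 232 templates (0.518% of productive templates). These sequences are printed because they spell nearly the same loop with different bases.
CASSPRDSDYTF, mouse 5, 41 templates: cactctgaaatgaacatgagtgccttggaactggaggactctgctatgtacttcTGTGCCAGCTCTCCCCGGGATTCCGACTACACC
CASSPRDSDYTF, mouse 5, 34 templates: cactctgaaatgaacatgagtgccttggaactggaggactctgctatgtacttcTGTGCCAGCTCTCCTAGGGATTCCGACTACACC
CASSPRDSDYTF, tumor of mouse 1, 232 templates: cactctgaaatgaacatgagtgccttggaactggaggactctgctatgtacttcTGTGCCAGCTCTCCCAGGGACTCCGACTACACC
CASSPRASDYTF, mouse 3, 21 templates: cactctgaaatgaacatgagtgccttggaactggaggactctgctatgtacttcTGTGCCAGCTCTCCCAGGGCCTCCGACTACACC
In day 0 blood of the 5 control mice neither CDR3 was found. The tumors of mice 5 and 3 held 658, 359 and 768 templates of these rearrangements, in the order of the 41, 34 and 21 blood templates.

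The leading CDR3 of mouse 5, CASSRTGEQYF, was found with the same V and J genes in a mouse of the rechallenge experiment that had been cured by mRBC-OVA-4-1BBL-IL-12. There it held 79 templates (0.778% of productive templates) before and 218 (2.26%) after rechallenge with EG7.OVA, and 133 (1.04%) before and 211 (1.15%) after a later challenge with EL4. Its main rearrangement there differed from that of control mouse 5 at 4 of the 87 bases: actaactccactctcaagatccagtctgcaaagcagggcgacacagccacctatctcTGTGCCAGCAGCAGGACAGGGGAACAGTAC
The leading CDR3 of mouse 3 was found in the tumor of mouse 2 at the active dose of 2.5e8, in 70 templates (0.435%), on a rearrangement 1 base different: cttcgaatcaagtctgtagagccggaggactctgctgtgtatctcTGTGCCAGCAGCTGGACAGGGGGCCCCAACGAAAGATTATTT
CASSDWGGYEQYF (TCRBV13-03, TCRBJ02-07), which rose from 0 to 14 templates in mouse 5, was at 20 templates in the tumor of control mouse 3 and at 13 and 35 in tumors of mice 3 and 5 at 2.5e8, with 1 or 2 bases different. These 3 CDR3s and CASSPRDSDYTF were the only called ones, of 34 rearrangements, with at least 10 templates in a library of another mouse of the series on the same V and J genes.

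Clonality of the endogenous repertoire was slightly higher on day 7 in every mouse, while the number of distinct rearrangements differed in either direction. Clonality, 1 minus the normalized Shannon entropy, is 0 when all clones are equal and 1 for a single clone. At 2621 templates it went from 0.00691 to 0.0113 in mouse 2, from 0.0102 to 0.0124 in mouse 3, from 0.00487 to 0.00947 in mouse 4 and from 0.00625 to 0.0187 in mouse 5, with 0.00912 in mouse 1 on day 0. The days overlapped, since mouse 3 on day 0 lay above mouse 4 on day 7. The paired change was 0.00590 ± 0.00449 (SD, n = 4), higher in 4 of 4 mice (p = 0.125, exact two-sided sign-flip test, the smallest possible). It was 0.00372 without mouse 5, and 0.00372 to 0.00832 with each mouse left out in turn. The 0.00832 was without mouse 3, whose day 0 library sets the depth, and was computed at 4954 templates. Without the pairing, the 4 day 7 libraries exceeded the 5 day 0 libraries by 0.00548 (p = 0.0238, exact two-sided permutation test). Mice 2 to 5 stand on both sides of that test, which treats their libraries as independent. The share held by the 10 largest rearrangements, at each library's own depth, was 0.767% to 1.49% on day 0 and 2.87% to 5.18% on day 7, without overlap. Distinct rearrangements at 2621 templates were 2246, 1933, 2345 and 2258 on day 0 and 2200, 2218, 2373 and 2123 on day 7 in mice 2, 3, 4 and 5. They were higher in 2 mice and lower in the other 2, by 32.5 ± 181 on average (p = 0.875, exact sign-flip test). Without mouse 3, where the depth rose to 4954 templates, the mean change was -55.1. With the 34 called rearrangements taken out, a choice made on the same values and so given without a test, the changes in clonality were 7.84e-05, -0.00353, -0.00109 and 0.000569 in mice 2, 3, 4 and 5.

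Naïve Pep Boy mice bled before and 7 days after a first EG7.OVA challenge had smaller changes in clonality and fewer higher calls per mouse. They received 500000 OT-1 cells 1 day before the challenge and no red blood cell product, and were sampled in another experiment. Tumor stage, OT-1 number, red blood cell dosing and experiment thus cannot be told apart from each other. At 2621 templates their clonality changed by 0.00134, -0.00130, -0.00178, -0.000310 and -0.000290, and that of control mice by 0.00438, 0.00219, 0.00460 and 0.0124. The changes did not overlap, and their means differed by 0.00637 (p = 0.00794, exact two-sided permutation test; adjusted p = 0.0238 over the 3 group comparisons). Without control mouse 5 the difference was 0.00419, and with each control mouse left out in turn it was 0.00419 to 0.00796 (p = 0.0179 each, exact permutation test). The 0.00796 was without control mouse 3, where the depth rose to 3184 templates. In naïve mice 8 of 51 tested rearrangements (15.7%) were called higher and 11 (21.6%) lower, 1.6 ± 0.894 higher calls per mouse (n = 5) against 8.5 ± 2.08 in control mice (n = 4; p = 0.00794, exact permutation test). Lower calls per mouse were 2.2 ± 1.79 in naïve mice and 1.75 ± 1.26 in control mice (p = 0.841, exact permutation test). With both libraries of each mouse drawn to the smaller, 2 of 41 tested rearrangements were called higher in naïve mice. In control mice 32 were, with 23, 7, 26 and 17 tested in mice 2, 3, 4 and 5 (p = 0.00794 for calls per mouse, exact permutation test). The tests on calls compare calls per mouse, not the share of tested rearrangements called, and fewer were tested in naïve mice.

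Against active treatment the control change was small. At 482 templates, set by a shallow day 7 library at 1e9 mRBC-OVA-4-1BBL-IL-12, clonality changed by 0.00261 ± 0.00226 in 4 control mice and by 0.0578 ± 0.0207 in 4 mice at 1e9 (p = 0.0286, exact permutation test; adjusted p = 0.0286). At 2483 templates it changed by 0.00571 ± 0.00444 in control mice and by 0.0482 ± 0.0227 in 5 mice at 2.5e8 (p = 0.0159, exact permutation test; adjusted p = 0.0238). Neither pair of groups overlapped, and p was 0.0536 (exact permutation test) for the lower dose without any 1 of the 4 control mice. In these comparisons OT-1 was left out by its exact CDR3 only. Leaving out rearrangements within 2 bases of OT-1 as well was not tried for them.

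**Figure D4:**
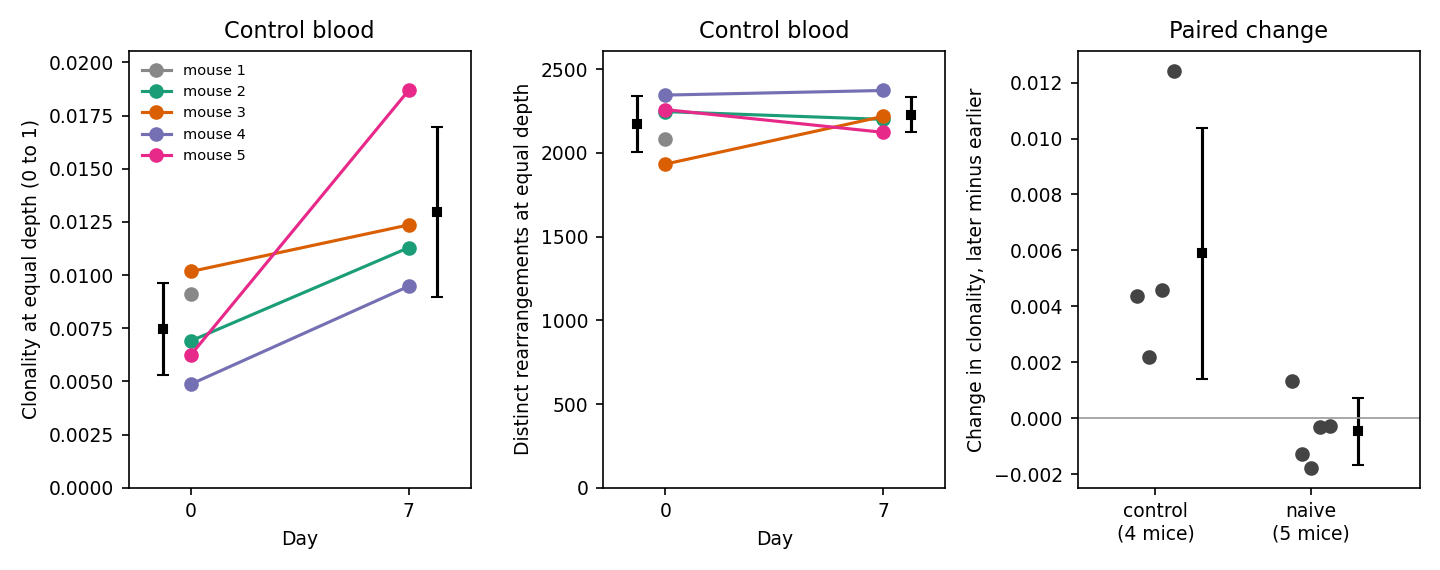
Left and middle: clonality and number of distinct endogenous rearrangements in control blood at 2621 templates, with a line per mouse and black squares with bars for mean and SD of all libraries of a day (5 on day 0, 4 on day 7). Right: change in clonality from the earlier to the later blood in control and naïve mice at 2621 templates, with mean and SD; the 4 control mice lie between 0.00219 and 0.0124 and the 5 naïve mice between -0.00178 and 0.00134.

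Of 25 V genes tested, 2 differed between days (8%; edgeR quasi-likelihood test with the mouse as a block, Benjamini-Hochberg adjusted p under 0.05). TCRBV12-01 held 4.48%, 4.01%, 3.90% and 3.67% of endogenous templates on day 0 in mice 2, 3, 4 and 5. On day 7 it held 5.12%, 5.40%, 4.78% and 5.64%. It was higher in 4 of 4 mice without overlap between days, with a log2 fold change of 0.37 (SE 0.10, adjusted p = 0.00876, edgeR). It is also the V gene of OT-1, and its log2 fold change was 0.38 with rearrangements within 2 bases of OT-1 left out as well. TCRBV02-01 fell from 6.58%, 6.94%, 6.64% and 6.60% to 5.90%, 5.61%, 5.36% and 4.98%, a log2 fold change of -0.29 (SE 0.10, adjusted p = 0.0411, edgeR), again without overlap. Mouse 1 lay on the same side on day 0, with 2.92% TCRBV12-01 and 7.06% TCRBV02-01.

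Clones called higher made up part of the TCRBV12-01 share on day 7, at 0%, 0.626%, 0.187% and 1.62% of endogenous templates in mice 2, 3, 4 and 5. With all rearrangements over 10 templates left out of both days, the log2 fold change was 0.26 for TCRBV12-01 and -0.26 for TCRBV02-01 (adjusted p = 0.015 and 0.0126, edgeR). Counted as distinct rearrangements they were 0.20 and -0.08, and 0 V genes passed. No V gene passed without mouse 3, 4 or 5 either, where the adjusted p of TCRBV12-01 was 0.0761, 0.052 and 0.248 (edgeR). The most used V genes did not pass. TCRBV13-02 held 10.7% ± 0.592 on day 0 and 10.8% ± 0.695 on day 7 (SD, n = 4 each), TCRBV03-01 8.48% ± 0.370 and 7.52% ± 0.488, TCRBV19-01 7.08% ± 0.243 and 7.21% ± 1.08. TCRBV05-01 held 6.33% ± 0.367 and 6.63% ± 0.890, and TCRBV13-03 5.95% ± 0.245 and 6.37% ± 0.853. The spread between mice was larger on day 7 for each of these 5 genes.

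**Figure D5:**
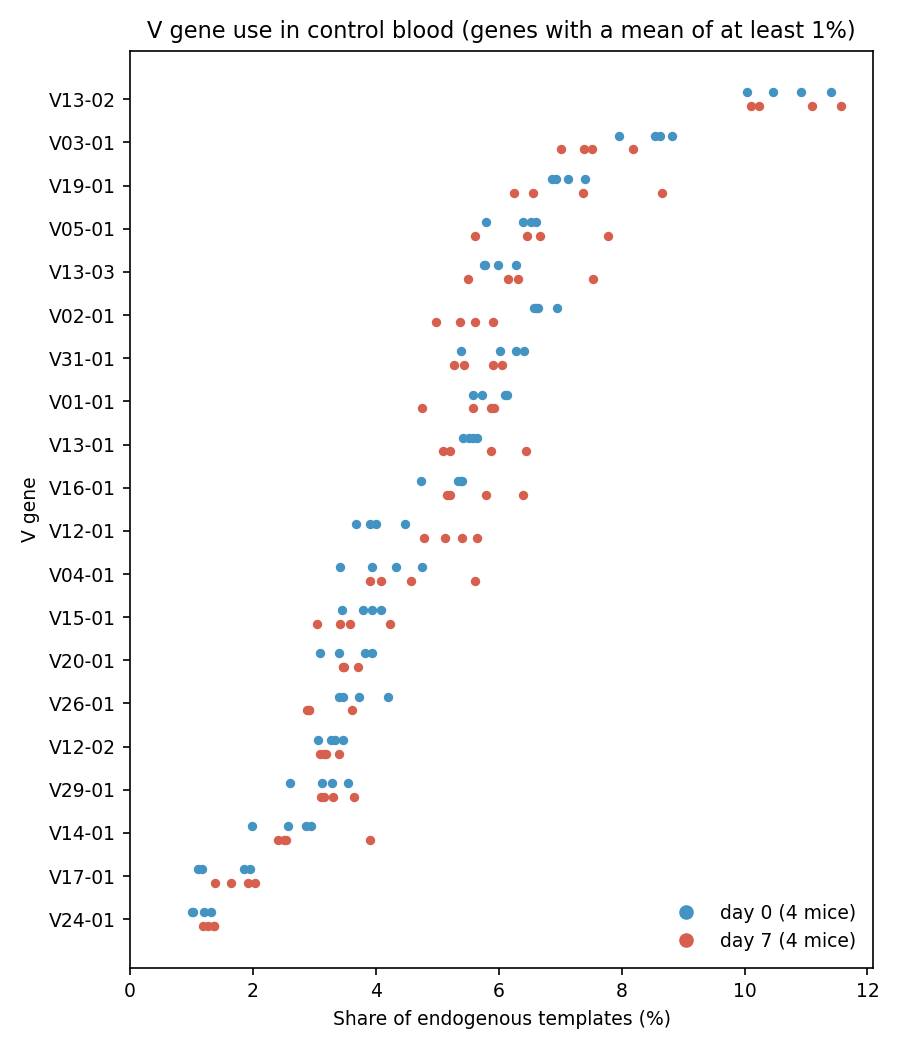
Share of endogenous templates (%) of each V gene with a mean of at least 1% in control blood, with 1 point per mouse on day 0 (blue) and day 7 (red). The points of the 2 days are apart for V12-01, at 3.67% to 4.48% and 4.78% to 5.64%, and for V02-01, at 6.58% to 6.94% and 4.98% to 5.90%.

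J gene use did not pass the test for any of 12 genes (0%; edgeR, lowest adjusted p = 0.511), and 0 genes had an unadjusted p under 0.05; DESeq2 also called 0, with 3 under an unadjusted 0.05. TCRBJ02-07 held 26.5% ± 1.25 on day 0 and 27.2% ± 1.26 on day 7 (SD, n = 4 each), TCRBJ02-01 9.57% ± 0.705 and 9.52% ± 1.04, and TCRBJ02-05 9.31% ± 0.197 and 8.70% ± 0.303. The last was lower on day 7 in 4 of 4 mice, but mouse 1 on day 0 (8.87%) lay inside the day 7 range of 8.26% to 8.93%, at a log2 fold change of -0.10 (SE 0.07, adjusted p = 0.511, edgeR).

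CDR3 amino acid sequences that recur between mice, often called public, were compared across mice as well. Only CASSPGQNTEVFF was found on both days in all 4 mice, at 1 to 3 templates a library. Of 30 CDR3s found in at least 3 of 4 mice on a day with at least 10 templates in all, 0 (0%) passed (edgeR, lowest adjusted p = 0.227; 5 had an unadjusted p under 0.05, and DESeq2 called 1). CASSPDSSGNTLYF had 0 templates on day 0 in all 5 mice and 3, 4, 7 and 2 on day 7 in mice 2, 3, 4 and 5. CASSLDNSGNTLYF likewise had 0 on day 0 and 5, 1, 4 and 2 on day 7. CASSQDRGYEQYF had 2, 2, 4 and 2 templates on day 0 in the same mice and 0 on day 7, but also 0 in mouse 1 on day 0. The list of 30 admits a CDR3 through the day on which it was found in at least 3 mice, and so favours this pattern. A list narrowed to CDR3s found in all 4 mice on a day does so more strongly. Calls or unadjusted p on either list are thus no test of it. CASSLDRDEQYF, with 3, 3, 6 and 0 templates on day 7, and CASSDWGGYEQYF, with 0, 2, 1 and 14, were the other 2 with an unadjusted p under 0.05. All 5 also occurred in blood of mice outside the control group, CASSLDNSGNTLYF for example in 3 of 5 naïve libraries before and 5 of 5 after challenge.

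No difference in CDR3 length or make-up passed a test, which with 4 pairs could not go below p = 0.125 (exact sign-flip test). Template-weighted mean CDR3 length was 41.5 ± 0.116 bases on day 0 and 41.5 ± 0.080 on day 7 (SD, n = 4 each), a paired change of -0.058 ± 0.195 bases (p = 0.625, exact sign-flip test). Bases added at the joints averaged 3.37 ± 0.0714 and 3.38 ± 0.0557, and 9.13% ± 1.24 and 8.48% ± 0.663 of templates had none. The second D segment was used in 41.5% ± 1.45 and 42.4% ± 1.60 of templates with an assigned D. Changes in these 3 measures had both signs among the 4 mice, with p from 0.5 to 0.75 (exact sign-flip tests).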

How the data were processed

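Genomic DNA of blood and tumor was amplified by the authors with the immunoSEQ multiplex PCR, which is controlled for primer bias, and sequences were collapsed and filtered. The authors deposited a count of templates for each nucleotide rearrangement, not normalized, with CDR3 length and inserted bases as deposited values. The aligner and reference are not given in the sources used here. Groups and mouse numbers came from the labels. Same-numbered day 0 and day 7 samples are the same mouse, so they were paired; the unpaired clonality difference was 0.00548. The members and lists were chosen with earlier results of these data known.

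A clone was a nucleotide rearrangement. Productive templates per control blood library ranged from 3423 to 10940. Intervals and the floor of 3 templates cover counting error only, since PCR reads are not independent cells. Clones with at least 5 templates over both days were tested by two-sided Fisher's exact tests on endogenous templates, adjusted within the mouse at 0.05. Clonality was averaged over 100 seeded draws to the smallest library, and distinct rearrangements and overlap at equal depth were computed as expectations. V genes, J genes and recurrent CDR3s with at least 10 templates were fitted with edgeR 4.0.16, with the mouse as a block and endogenous totals as library sizes, and with DESeq2 1.42.0 or TMM as alternatives. V or J was assigned for at least 99.77% of templates. Named were the largest rearrangement of each library, per mouse and direction the 3 called rearrangements with the lowest adjusted p, the CDR3s found on both days in all mice, the V and J genes that passed and the 5 V and 3 J genes of highest share; others are named as chosen after their values were seen, among them the related CDR3s and the 5 recurrent CDR3s under an unadjusted 0.05. Procedures were tested on simulated data. Tests other than the fits ran in scipy 1.17.1 under python 3.11.15, with figures from matplotlib 3.10.9, and the fits ran in R 4.3.3.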

Additional observations from a re-analysis of the deposited data

Results flagged for a closer look

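Among 44 groups of 4 or 5 values checked for a sample far from the others, 3 were found, and chance alone gives about 1 in 20. The largest day 0 clone of mouse 2 held 0.323% of endogenous templates, above the other day 0 libraries. OT-1 stood at 7.58% of productive templates in day 7 blood of mouse 2, against 2.17% to 2.53% in the other 3. The log2 Simpson index, the chance that 2 templates drawn share a rearrangement, was -10.8 in day 7 blood of mouse 5, the highest of that day.

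The change in clonality differed between groups in each of 3 comparisons, by -0.0552 for control minus 1e9 mice, -0.0424 for control minus 2.5e8 mice and 0.00637 for control minus naïve mice. Control mice had 6.9 more clones called higher per mouse than naïve mice, with 106 rearrangements tested in control mice and 51 in naïve mice.

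Signals in libraries outside the comparison of days were 4 CDR3s of called clones seen in other mice. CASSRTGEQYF of control mouse 5 held 2.26% of productive templates in blood of cured mouse 4 after EG7.OVA rechallenge. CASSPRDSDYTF of control mouse 5 held 0.523% in the tumor of control mouse 1, all its rearrangements with the same V and J genes counted. The leading CDR3 of control mouse 3 held 0.435% in the tumor of mouse 2 at 2.5e8, and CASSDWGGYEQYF of control mouse 5 held 0.101% in the tumor of mouse 5 at 2.5e8. Control day 0 blood held 0 templates of these 4 CDR3s.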

How the results depend on the processing

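The precision is set by template number: in the shallowest library, day 0 blood of mouse 3, a clone must hold 0.114% of endogenous templates to give 3, and with 4 pairs the sign-flip test cannot go below 0.125. Clones called higher numbered 11 with no minimum of templates and 53 with all productive templates as denominator, against 34; they ranged from 23 to 28 when each mouse was left out. Clones called lower, 7, numbered 0 with at least 10 templates, with no minimum or at an adjusted p of 0.01, 3 with both libraries drawn to the smaller, and 4 to 7 with a mouse left out. Leaving out a mouse only takes away its own higher or lower calls, as these were made within each mouse. The overlap within mice was 0.0238 (p = 0.0833, exact permutation test) with clones defined by amino acids, and 0.0102 to 0.0231 with a mouse left out, where p cannot go below 0.167. V genes that differed, 2, numbered 1 with TMM factors, 0 counted as distinct rearrangements and 0 to 2 with a mouse left out. Recurrent CDR3s that differed, 0, numbered 3 with no replicate block, 1 with DESeq2 and 3 among CDR3s found in all 4 mice on a day. Each list selects for the pattern tested, the last more strongly. The clonality change was 0.00548 with no replicate block (p = 0.0238, exact permutation test). The change in CDR3 length, -0.058 bases, was 0.0589 for distinct rearrangements and -0.142 to 0.0017 with a mouse left out, and that in distinct rearrangements, 32.5, was -55.1 to 88.5 with a mouse left out. The -55.1 was without mouse 3 and at 4954 templates, the others at 2621. Mice of different groups share only a number: deviations in V use of same-numbered mice correlated from -0.512 to 0.414. For the same control mouse on day 0 and day 7 they correlated from -0.233 to 0.394, so this check cannot tell true pairs from others. With the number as a replicate block the differences in clonality change were -0.0552, -0.0448 and 0.00682 for 1e9, 2.5e8 and naïve mice (each p = 0.125, exact sign-flip test). Without a control mouse the difference from 2.5e8 mice was -0.0446 to -0.0412 (p = 0.0536, exact permutation test). The difference from naïve mice in lower calls per mouse, -0.45, was 0.35 with both libraries drawn to the smaller.

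Log2 fold changes of genes that did not pass changed sign in some settings. TCRBV13-02 was at -0.00300 with no replicate block and -0.0422 to 0.0360 with a mouse left out. With a mouse left out TCRBV19-01 ranged from -0.0751 to 0.0821, TCRBV05-01 from -0.00455 to 0.160 and TCRBJ02-01 from -0.100 to 0.0588. Counted as distinct rearrangements TCRBV05-01 was at -0.0541, TCRBV13-03 at -0.0507, TCRBJ02-07 at -0.0359 and TCRBJ02-01 at 0.0786. TCRBJ02-01 was at 0.00133 with TMM and 0.0133 with DESeq2. Of 255 values of 29 named clones and genes under the alternatives, 210 kept direction and side of the threshold, 33 no longer passed and 12 changed sign. The causes were not tested.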
